A study of Arabidopsis thaliana with 6 samples.

Results

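Transcripts of 4 enzymes of isoprenoid synthesis were followed in whole Arabidopsis thaliana plants, of the ceh1 mutant and of its parent line. The enzymes were AT1G31910 (phosphomevalonate kinase), AT3G54250 (mevalonate diphosphate decarboxylase), LYC (AT3G10230, lycopene cyclase) and AT1G74470 (geranylgeranyl reductase). They were chosen for their place around the pathway step mutated in ceh1, and each was read by the 1 probe set that the platform annotation pairs with it alone, among 13286 genes with such a probe set. The ceh1 plants and the parent plants, which the labels call wild type, were 2 weeks old, with 3 biological replicates per genotype and 1 Affymetrix array per replicate. About 20 plants were collected for RNA, and they had grown on 0.5-strength Murashige and Skoog medium after 2 days at 4 °C, then at 23 °C in days of 8 h light and 16 h dark. The labels name no other allele or transgene in either line. They do not say whether the replicates were grown separately, so p-values measure the spread between these arrays.

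Plants make the same small isoprenoid building blocks along 2 routes. The methylerythritol phosphate pathway runs in plastids and feeds carotenoids, the phytyl tails of chlorophyll and tocopherol, and several hormones, while the mevalonate pathway runs outside plastids and feeds mainly sterols and ubiquinone. The gene mutated in ceh1 is HDS, whose product is the enzyme of the penultimate step of the plastid route, and ceh1 plants are known to accumulate that enzyme's substrate, methylerythritol cyclodiphosphate. Phosphomevalonate kinase and mevalonate diphosphate decarboxylase catalyse the last steps of the mevalonate route. Lycopene cyclase closes the beta rings of carotenes, and geranylgeranyl reductase saturates the geranylgeranyl chain to the phytyl chain of chlorophyll and tocopherol. HDS and the other 6 listed genes of the plastid route had no single-gene probe set in the annotation used and are not analysed here, so the mutated gene could not serve as a check of the labels.

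None of the 4 transcripts differed between ceh1 and parent beyond the threshold set over all probe sets. Their log2 fold changes, ceh1 minus parent, were -0.60 for LYC, -0.44 for AT1G74470, -0.28 for AT3G54250 and 0.070 for AT1G31910. The fold changes are on the scale of log2(intensity + 2) after quantile normalization. Over all 15922 probe sets tested, 3.77% passed (limma, Benjamini-Hochberg adjusted p under 0.05), 2.62% higher and 1.15% lower in ceh1, against 0 of the 4 members. At an unadjusted p under 0.05, LYC was the 1 member below the threshold, as were 20.9% of all tested probe sets. With the spread that these arrays had, a member would have needed a log2 change of 0.88 (AT3G54250) to 1.09 (AT1G31910) to pass in this fit, or 1.84-fold to 2.12-fold.

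The arrays differed in ways other than genotype. Trimmed mean intensities of the arrays spanned 1.60-fold before normalization, with overlap between genotypes. The ratio of 3' to 5' signal of an actin control was 3.99 to 4.09 on the log2 scale in ceh1 and 4.27 to 4.46 in parent arrays, without overlap, while a second actin control overlapped. The control signal of 25S ribosomal RNA was 1132 to 4598 in ceh1 and 294 to 985 in parent arrays (for this and the first-named actin ratio p = 0.1 in an exact permutation test, two-sided, and no lower p is possible with 3 arrays on each side). Of 12 root markers, 5 had a single-gene probe set. Before normalization their summed intensity was 1209 to 1893 in ceh1 against 330.4 to 883 in parent arrays. Nearly all of it came from PYK10 (log2 fold change of 1.21, limma, adjusted p = 0.0733). The other four had lower mean signals in ceh1, AT3G20460 by a log2 fold change of -0.82 (limma, adjusted p = 0.256) and 3 too dim to be tested. Of 12 leaf markers, RCA and LHCB4.1 had one. Before normalization their summed intensity was 12751 to 13860 in ceh1 against 14086 to 18282 in parent arrays. After normalization RCA overlapped between genotypes, while LHCB4.1 was lower in all ceh1 arrays, as were 15.1% of all tested probe sets. RCA, which encodes rubisco activase, and LHCB4.1, a light-harvesting protein gene, were among the brightest transcripts. In whole plants, fewer cells of a type and less RNA per cell cannot be told apart. The part of these measures in the differences below was not tested.

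A further difference between arrays cut across genotype. COR27, a cold-regulated gene that is also known to cycle with the circadian clock and to peak towards evening, had normalised log2 signals of 1.80, 9.10 and 9.69 in ceh1 replicates 1, 2 and 3. In parent replicates 1, 2 and 3 it had 3.07, 1.70 and 9.75. COR27 was thus near the floor in ceh1 replicate 1 and parent replicates 1 and 2 and bright in the other three arrays. GI (GIGANTEA), an evening gene of the clock, had 7.66, 8.98 and 8.60 in ceh1 replicates 1, 2 and 3 and 7.52, 7.49 and 9.56 in parent replicates 1, 2 and 3. The same arrays were therefore low and high for both genes. The labels give no hour of collection. COR27 was singled out after its values were seen, because it was among the genes whose pattern was most like that of AT1G31910.

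AT1G31910, the phosphomevalonate kinase gene, had normalised log2 signals of 8.79, 9.32 and 9.40 in ceh1 replicates 1, 2 and 3, against 8.99, 8.89 and 9.43 in parent replicates 1, 2 and 3. The genotypes overlapped, and the lowest and the highest of the 6 values came from ceh1 replicate 1 and parent replicate 3. The means were 9.17 ± 0.33 in ceh1 and 9.10 ± 0.29 in parent (SD, n = 3 each). The log2 fold change of 0.070 ± 0.23 (SE) had a 95% interval of -0.47 to 0.61 (limma, adjusted p = 0.900), which in fold terms ran from 0.721 to 1.53. Its absolute change was smaller than that of 86.3% of tested probe sets. Before normalization the deposited intensities were 386, 758 and 797 in ceh1 and 591, 434 and 522 in parent replicates 1, 2 and 3, which likewise overlapped.

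The kinase transcript was high in the 3 arrays in which COR27 was high. It lay between 9.32 and 9.43 there, in 2 ceh1 arrays and 1 parent array, and between 8.79 and 8.99 in the other three. Because COR27 was picked for its likeness to this transcript, close values at like COR27 level follow from that choice and say nothing independent about genotype. The difference, ceh1 minus parent, was -0.15 among the 3 arrays of low COR27 (1 ceh1 array and 2 parent arrays) and -0.066 among the 3 of high COR27 (2 ceh1 arrays and 1 parent array). These within-subset differences, and those of the other members below, rest on 1 array on one side and carry no test. With COR27 as a covariate, a setting chosen after the data were seen, the difference was -0.074 ± 0.14 (SE, limma, adjusted p = 0.807), the smaller error likewise following from the choice of gene. With GI as a covariate the difference was 0.0051 ± 0.16 (SE). The sign of this small difference also changed with the array left out, from -0.047 without ceh1 replicate 3 to 0.26 without ceh1 replicate 1.

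**Figure D1:**
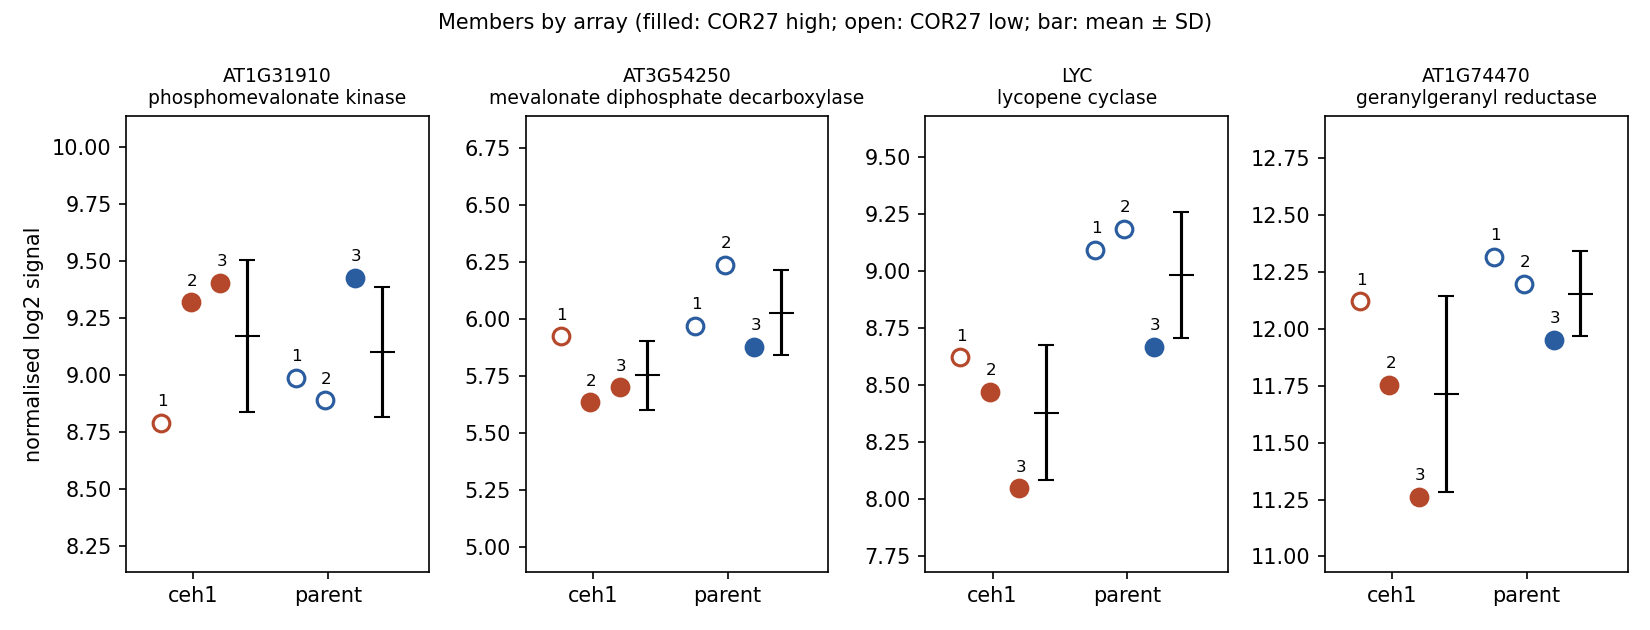
Normalised log2 signal (y axis, log scale) of the 4 transcripts in each array, ceh1 left and parent right in each panel. Numbers are replicates, filled points are arrays with high COR27 and open points arrays with low COR27, and bars give the mean ± SD of 3 arrays. All panels span the same range of log2 units. In LYC alone all 3 ceh1 arrays lie below all 3 parent arrays.

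AT3G54250, the mevalonate diphosphate decarboxylase gene, was a transcript of middling brightness, above 52.1% of probe sets in mean signal. It had normalised log2 signals of 5.92, 5.63 and 5.70 in ceh1 replicates 1, 2 and 3, against 5.97, 6.24 and 5.88 in parent replicates 1, 2 and 3. The genotypes overlapped only through ceh1 replicate 1, which lay above parent replicate 3. The means were 5.75 ± 0.15 in ceh1 and 6.03 ± 0.19 in parent (SD, n = 3 each), a log2 fold change of -0.28 ± 0.19 (SE) with a 95% interval of -0.71 to 0.16 (limma, adjusted p = 0.456). In fold terms the interval ran from 0.610 to 1.12.

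The deposited intensities of AT3G54250 were 54.1, 55.5 and 60.7 in ceh1 and 68.3, 65.5 and 42.6 in parent replicates 1, 2 and 3. Parent replicate 3, the array with the lowest trimmed mean intensity, gave the lowest value before normalization. The difference was -0.28 with median scaling as well. It was -0.022 without normalization between arrays, where the median of all tested probe sets lay at 0.21, and thus -0.23 relative to that median. Without parent replicate 2 it was -0.17, a shift that rests on 1 array. Among arrays of low COR27 it was -0.18 and among those of high COR27 -0.21, and with COR27 as a covariate it was -0.21 ± 0.18 (SE). The normalised signals themselves were 5.63 to 5.88 in arrays of high COR27 and 5.92 to 6.24 in those of low COR27, without overlap.

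LYC, the lycopene cyclase gene, showed the largest difference of the 4 in the reported fit. It had normalised log2 signals of 8.62, 8.47 and 8.04 in ceh1 replicates 1, 2 and 3, against 9.09, 9.18 and 8.67 in parent replicates 1, 2 and 3. All 3 ceh1 arrays were below all 3 parent arrays, though ceh1 replicate 1 and parent replicate 3 nearly met. Replicates did not overlap, with ceh1 lower, in 15.1% of all tested probe sets, and in 27.5% in either direction, against 1 of the 4 members. The means were 8.38 ± 0.30 in ceh1 and 8.98 ± 0.28 in parent (SD, n = 3 each). The log2 fold change was -0.60 ± 0.22 (SE), or 0.659-fold, with a 95% interval of 0.460 to 0.944 that takes no account of the number of probe sets tested (limma, adjusted p = 0.185). A larger absolute change was seen in 21.9% of tested probe sets.

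The LYC difference was below 0 under all 18 alternatives, from -0.75 to -0.38, and passed the threshold under 1 of them, with array weights (-0.74, limma, adjusted p = 0.0422). Over the 18 alternatives its adjusted p ran from 0.0422 to 0.708. In that weighted fit 1815 probe sets passed, against 600 as reported. The deposited intensities, 347, 433 and 312 in ceh1 and 636, 537 and 299.9 in parent replicates 1, 2 and 3, overlapped. Without normalization the difference was -0.38, or -0.58 relative to the median of all tested probe sets. The difference was -0.52 among the arrays of low COR27 and -0.41 among those of high COR27. With COR27 as a covariate it was -0.49 ± 0.17 (SE, limma, adjusted p = 0.160), and with GI -0.55 ± 0.18 (SE, limma, adjusted p = 0.129).

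AT1G74470, the geranylgeranyl reductase gene, was among the brightest transcripts, above 99.5% of probe sets. It had normalised log2 signals of 12.12, 11.75 and 11.26 in ceh1 replicates 1, 2 and 3, against 12.31, 12.20 and 11.95 in parent replicates 1, 2 and 3. Of the ceh1 arrays, 2 were below all parent arrays, and ceh1 replicate 1 lay above parent replicate 3. The means were 11.71 ± 0.43 in ceh1 and 12.15 ± 0.19 in parent (SD, n = 3 each). The log2 fold change was -0.44 ± 0.23 (SE), with a 95% interval of -0.98 to 0.095 (limma, adjusted p = 0.329), and a larger absolute change was seen in 33.3% of tested probe sets.

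For AT1G74470 the deposited intensities were 3819, 3957 and 2648 in ceh1 and 6172, 4807 and 3345 in parent replicates 1, 2 and 3. The lowest array of each genotype was replicate 3, as in LYC. The size of the difference depended on the scaling, and with median scaling it was -0.70 (limma, adjusted p = 0.150). Without normalization it was -0.44, or -0.64 relative to the median of all tested probe sets. In both of these settings it was larger than that of LYC, at -0.64 and -0.38. The AT1G74470 difference also leaned on 1 array, since without ceh1 replicate 3 it was -0.22 (limma, adjusted p = 0.632). The difference was -0.13 among arrays of low COR27, -0.44 among those of high COR27 and -0.32 ± 0.17 (SE) with COR27 as a covariate. The normalised signals themselves were 11.26 to 11.95 in arrays of high COR27 and 12.12 to 12.31 in those of low COR27, without overlap. The difference between genotypes was below 0 under all 18 alternatives, and in none did it pass.

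**Figure D2:**
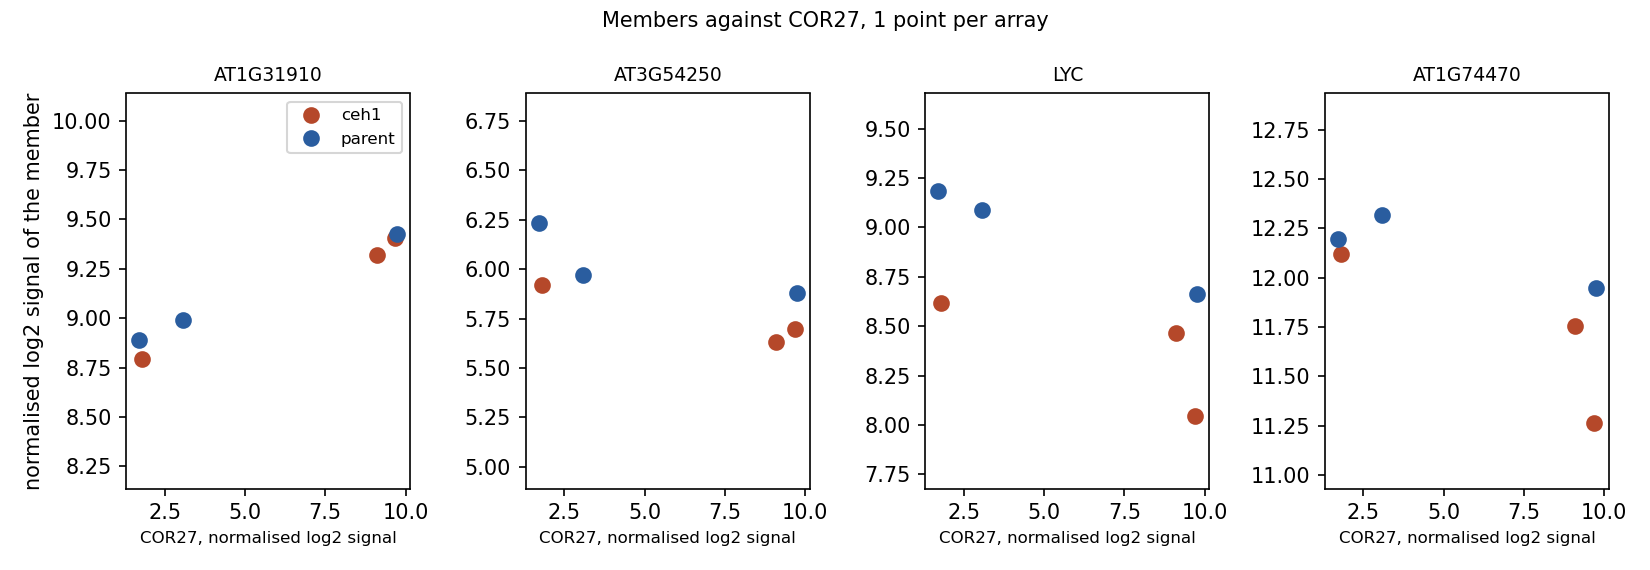
Normalised log2 signal of each transcript (y axis) against that of COR27 (x axis), 1 point per array, ceh1 and parent in separate colours. In the AT1G31910 panel the points form 2 groups, low and high for both genes, each with arrays of both genotypes. COR27 was picked for its likeness to AT1G31910. In the AT3G54250 and AT1G74470 panels all arrays of high COR27 lie below all arrays of low COR27. In the LYC panel the 2 COR27 levels overlap. In all panels the ceh1 mean lies below the parent mean among arrays of like COR27 level. Each of these comparisons has 1 array on one side and was not tested. Over all 6 arrays the log2 fold change of AT1G31910 was 0.070.

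LYC and AT1G74470 varied together from array to array, and many other genes varied with them. Over the 6 arrays Pearson's r between LYC and AT1G74470 was 0.927, a value that includes the difference between genotypes. Of 8709 other tested genes, 326 had r above 0.9 to LYC and 185 to AT1G74470. Within ceh1, replicates 1, 2 and 3 deviated from their mean by 0.24, 0.090 and -0.33 for LYC and by 0.41, 0.041 and -0.45 for AT1G74470. Within parent they deviated by 0.11, 0.20 and -0.31 for LYC and by 0.16, 0.042 and -0.20 for AT1G74470. In both genotypes replicate 3 was the low array for both genes. Replicate 3 was also an array of high COR27 in both genotypes, as was ceh1 replicate 2. Pearson's r to COR27 was -0.730 for LYC and -0.775 for AT1G74470. AT3G54250, of the mevalonate route, followed LYC with r = 0.849 and AT1G74470 with r = 0.733. AT1G31910 ran against the other three, with r = -0.700 to AT3G54250, -0.644 to LYC and -0.734 to AT1G74470. With 6 arrays of which several share the COR27 level, these values describe the arrays only.

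Genes with the most similar pattern were sought among 8709 other named genes tested, by Pearson's r over the 6 normalised arrays. For AT1G31910 they were AT2G14800 (r = 0.997), AT4G19440 (r = 0.992) and COR27 (r = 0.987), and 107 genes had r above 0.9. For AT3G54250 they were AT2G37470 (r = 0.992), AT4G38700 (r = 0.990) and AT1G50140 (r = 0.986), with 172 genes above 0.9. For LYC they were AT5G67390, AT5G10310 and AT2G20100, with r of 0.995, 0.995 and 0.992, and 326 genes lay above 0.9. AT5G67390 shows the LYC pattern on a wider scale, at 5.36, 5.04 and 4.06 in ceh1 and 6.25, 6.34 and 5.51 in parent replicates 1, 2 and 3. For AT1G74470 they were AT2G39950 (r = 0.997), AT3G49140 (r = 0.992) and ROXY2 (r = 0.985), a glutaredoxin gene, with 185 genes above 0.9. None of these 12 genes passed the test between genotypes (limma, adjusted p from 0.137 for AT5G67390 to 0.924 for AT4G19440).

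Beyond the 4 members, few genes of isoprenoid metabolism could be read. Of 125 genes in 10 lists, from the first steps of both routes to carotenoids, tocopherols, sterols, gibberellins, terpenes and protein prenylation, 17 had a single-gene probe set and 9 were bright enough to be tested, the 4 members included. None of the 9 passed (limma, 0 of 9), against 3.77% of all tested probe sets. At an unadjusted p under 0.05 there were 2 of 9, against 20.9% of all, and with array weights 2 of 9 passed the adjusted threshold, against 11.4% of all. In 6 of the 9 ceh1 was the lower group, against 53.3% of all tested probe sets, and the median was -0.28, against -0.033 over all. The 8 that were too dim comprised all 5 prenyl diphosphate synthase genes and all 3 terpene synthase genes with such a probe set, among them TPS-CIN, a cineole synthase gene.

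In the carotenoid list, 3 of 15 genes were tested, none passed, and all 3 values were below 0. AT5G61670, listed with them, had the largest difference of the 9, at 9.24, 8.37 and 8.57 in ceh1 and 9.78, 9.62 and 9.23 in parent replicates 1, 2 and 3. The log2 fold change was -0.82 ± 0.27 (SE, limma, adjusted p = 0.143), and ceh1 replicate 1 overlapped parent replicate 3 by a small margin. Like LYC it passed with array weights alone (limma, adjusted p = 0.0404). Z-ISO, which encodes the isomerase of zeta-carotene upstream of lycopene, had a log2 fold change of -0.14 ± 0.22 (SE, limma, adjusted p = 0.765), at 7.92, 7.55 and 7.60 in ceh1 and 7.67, 7.62 and 8.20 in parent replicates 1, 2 and 3.

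In 3 other lists 1 gene each was tested beside the members. AT1G78620, listed with the phytyl and tocopherol genes, had a log2 fold change of 0.044 ± 0.19 (SE). FCLY, which encodes farnesylcysteine lyase and recycles prenyl groups from proteins, had 0.020 ± 0.16 (SE). CPI1, the cyclopropyl isomerase of sterol synthesis downstream of the mevalonate route, had signals of 7.10, 7.34 and 6.82 in ceh1 and 7.40, 7.59 and 7.45 in parent replicates 1, 2 and 3. Its ceh1 arrays were all below its parent arrays, as in 15.1% of all tested probe sets. The log2 fold change of -0.40 ± 0.19 (SE) did not pass (limma, adjusted p = 0.281). Genotypes did not overlap in 2 of the 9 tested isoprenoid genes, CPI1 and LYC, against 27.5% of all tested probe sets in either direction.

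**Figure D3:**
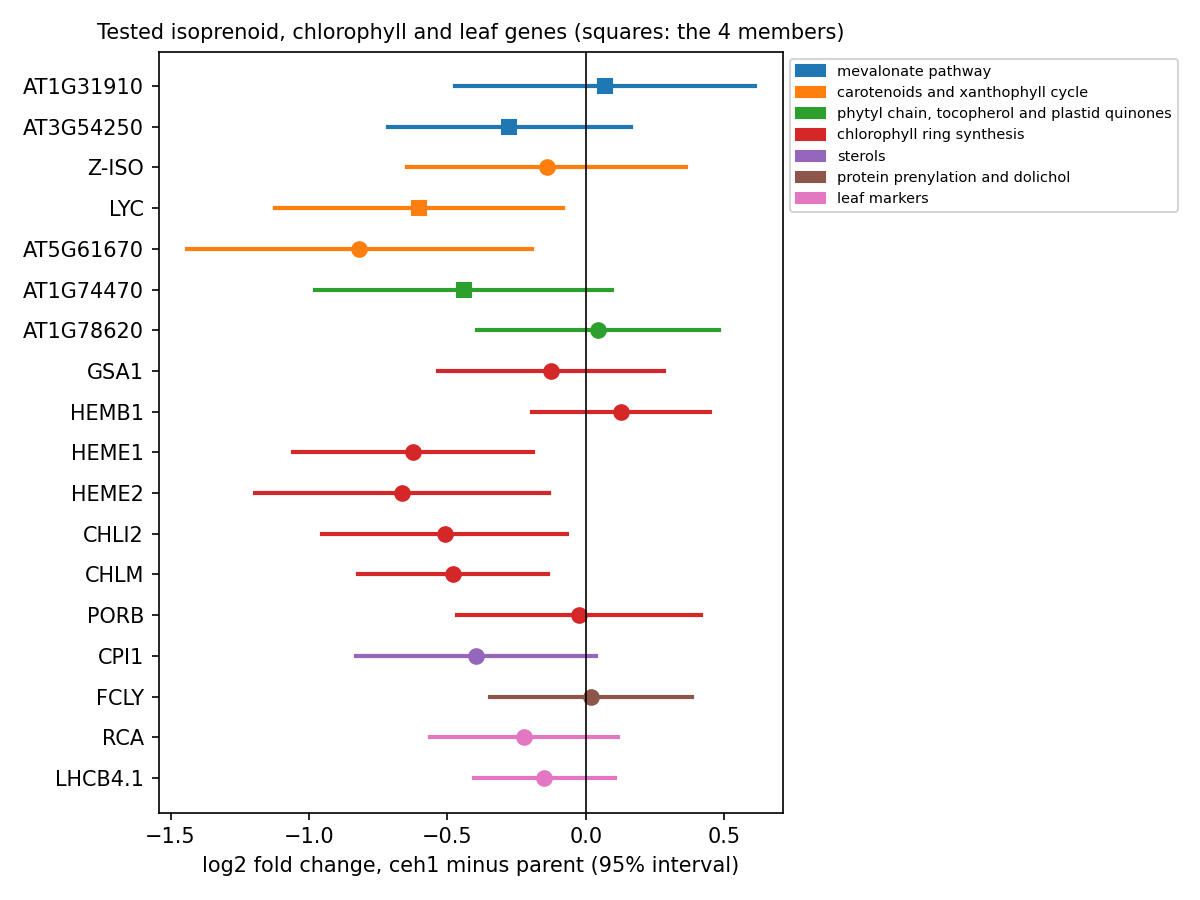
Log2 fold change, ceh1 minus parent (x axis), of each tested gene of the isoprenoid and chlorophyll lists and of 2 leaf markers, with lines for the 95% interval before adjustment and squares for the 4 members. Colours give the list. Most points lie below 0, and none passed the adjusted threshold.

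Geranylgeranyl reductase supplies the tail of chlorophyll, so the genes of the chlorophyll ring were set beside it. Of 21 listed genes 7 were tested and none passed (limma, 0 of 7), against 3.77% of all tested probe sets. At an unadjusted p under 0.05 there were 4 of 7, against 20.9% of all, and with array weights 2 of 7 passed the adjusted threshold, against 11.4% of all. Their median log2 fold change was -0.48, with 6 of 7 below 0, against 53.3% of all. HEME2 and HEME1, both uroporphyrinogen decarboxylase genes, had -0.67 ± 0.23 (SE) and -0.63 ± 0.19 (SE). CHLI2, a magnesium chelatase subunit gene, and CHLM, the magnesium-protoporphyrin methyltransferase gene, had -0.51 ± 0.19 (SE) and -0.48 ± 0.15 (SE). In these 4 genes, unlike AT1G74470, all ceh1 arrays were below all parent arrays, as in 15.1% of all tested probe sets. CHLM, for example, was at 10.67, 10.66 and 10.42 in ceh1 and 11.15, 11.09 and 10.93 in parent replicates 1, 2 and 3.

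The remaining 3 were near 0. PORB, a protochlorophyllide oxidoreductase gene, had -0.024 ± 0.19 (SE), and GSA1, an early enzyme of tetrapyrrole synthesis, had -0.13 ± 0.17 (SE). HEMB1, the porphobilinogen synthase gene, had 0.13 ± 0.14 (SE). All its ceh1 arrays were above the parent arrays by a small margin, as in 12.4% of all tested probe sets. The leaf markers RCA and LHCB4.1 had -0.22 ± 0.15 (SE) and -0.15 ± 0.11 (SE) on the same scale. With median scaling RCA had -0.55 and LHCB4.1 -0.52, beside -0.64 for LYC and -0.70 for AT1G74470, and none of the 4 passed there (limma, adjusted p from 0.0608 for LHCB4.1 to 0.179 for LYC). Whether LYC or the chlorophyll genes differed more than leaf transcripts in general was not tested.

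**Figure D4:**
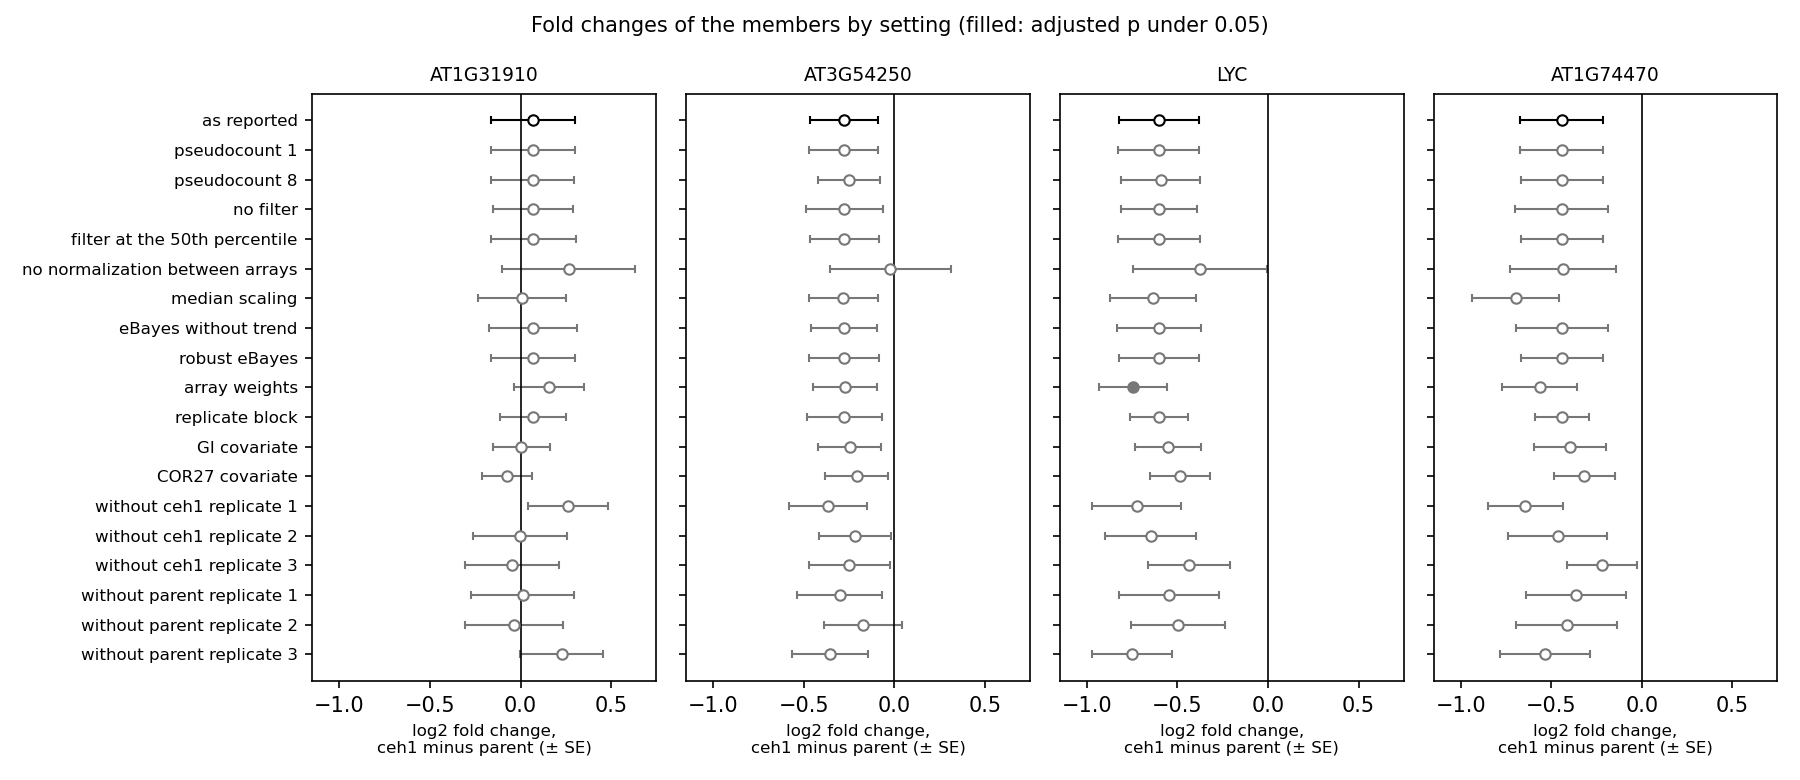
Log2 fold change, ceh1 minus parent (x axis, ± SE), of the 4 transcripts under the reported setting (top) and each of 18 alternatives (y axis). Filled points passed an adjusted p of 0.05. The AT1G31910 points straddle 0, the points of the other three lie below it, and the single filled point is LYC with array weights.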

How the data were processed

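The authors deposited probe set intensities on a linear scale for 6 arrays, made with MAS5 per the submitters' processing notes. The sources used here give no settings, version or genome build, so no coordinates or sequences are printed. The table held 22810 probe sets, of which 64 controls were set aside and 13513 were paired with 1 gene. Names were matched to the TAIR10.1 gene table through gene numbers, for 13436 of them. Intensities were transformed as log2(intensity + 2) and quantile normalised, keeping those 15922 probe sets whose mean reached the 30th percentile (log2 3.80). The comparison of ceh1 with parent used limma 3.58.1 under R 4.3.3, with a trended eBayes prior, two-sided tests and p-values adjusted by Benjamini-Hochberg over the 15922. The limma fit alone was tested on simulated data. These had independent noise in each array and no difference shared by many genes, such as that of the COR27 level. Where a gene had several probe sets, the brightest was taken. For arrays, the number of arrays limits the precision. No arrays held identical values.

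The members and lists were chosen with earlier results of these data known. Named genes were the members, the listed isoprenoid and chlorophyll genes, and for each member the 3 tested genes with the highest Pearson's r to it. Alternatives comprised pseudocounts of 1 and 8, other filters and scalings, other eBayes settings, array weights, a replicate block, a GI covariate, each array left out, and a COR27 covariate that was chosen after seeing the data. Clock values, GI among them, were examined because earlier results of these data had shown that arrays differ in them.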

Additional observations from a re-analysis of the deposited data

How the results depend on the processing

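The log2 fold changes of LYC, AT1G74470 and AT3G54250 were below 0 under all 18 alternatives, and the 1 change of call among the members was LYC with array weights (-0.74, limma, adjusted p = 0.0422), where 2 genes of the isoprenoid lists passed in place of 0. The value of AT1G31910 changed sign with the COR27 covariate (-0.074) and ran from -0.047 to 0.26 with 1 array left out, below 0 without ceh1 replicate 2, ceh1 replicate 3 or parent replicate 2. The number of probe sets that passed, 600, was 1815 with array weights, 1160 with the replicate block, 384 with a filter at the 50th percentile, 933 with the GI covariate, and between 152 and 676 with 1 array left out. Of these, 69.5% were rises as reported, 91.5% without normalization, 58.4% with the replicate block, 51.5% with array weights, 96.4% without parent replicate 1 and 96.1% without parent replicate 2. The falls that passed, 183 as reported, numbered 6 in each of the last 2 settings. The causes were not tested. Same-numbered ceh1 and parent arrays deviated from their group means with correlations of 0.273, 0.0568 and 0.473. For differently numbered arrays the correlations ran from -0.403 (ceh1 replicate 3, parent replicate 2) to 0.337 (ceh1 replicate 1, parent replicate 2). These values cannot decide whether same-numbered arrays shared a batch, and the reported fit took no pairs. In the fit with the replicate block the difference was -0.60 ± 0.16 (SE, limma, adjusted p = 0.0753) for LYC, with no change of call among the members.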
